A study of Mus musculus with 8 samples.

Results

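The regions described here are the widest accessible regions of an ATAC-seq data set of mouse bone marrow progenitor cells: those whose end minus start, as deposited on the mm10 build, was at least 2000 bp. There were 1266 of them among 61196 regions (2.07%), and they held 2864 kb, or 4.94% of all bases in regions. ATAC-seq reads open chromatin through insertions of the Tn5 transposase into accessible DNA. The 8 libraries fell into 4 sorted populations of 2 libraries each, which the labels name cMoP, GMP-MoP, proNeu1 and proNeu2. In common use cMoP stands for a committed monocyte progenitor, proNeu1 and proNeu2 for successive neutrophil progenitors, and a GMP-derived MoP for a monocyte progenitor reached from the granulocyte-monocyte progenitor. All were described as bone marrow progenitor cells, 5000 cells were sorted into each tube, and the sources used here do not give strain, age, treatment or sorting gates. Libraries of a population are termed biological replicates, but nothing says that each had its own mouse. The p-values then measure only the spread between these libraries, which may be technical.

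Accessible regions mark gene starts, where RNA polymerase is recruited, and enhancers, where transcription factors bind away from a start and displace nucleosomes. Myeloid progenitors share much of this landscape, while enhancers near lineage genes open or close as cells take the monocyte or the neutrophil path. A region that is wide on a peak list spans several nucleosome lengths and can hold more than 1 start or neighbouring enhancers that were joined.

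Total counts in regions ranged from 1388525 to 1907810 per library. The median count per region was 16 and 18 in the cMoP libraries, 11 and 15 in the GMP-MoP libraries and 11 to 12 in the others, against 53 to 74 per library in the wide regions. The strongest region nearest Csf1r, the receptor of the monocyte growth factor, had 62.3, 44.8, 23.6 and 16.4 CPM (counts scaled for library size and composition) in cMoP, GMP-MoP, proNeu1 and proNeu2, and that nearest Cebpe, a factor of granule formation, had 13.1, 25.2, 79.2 and 108. Of the other monocyte-side markers, Irf8 and Klf4 ran in the order of Csf1r, while Ly6c2, a surface antigen of monocytes, ran against it, with 32.2 CPM in cMoP and 54.1, 51.8 and 47.6 in GMP-MoP, proNeu1 and proNeu2. Among 13 marker genes of the monocyte side, the neutrophil side and shared progenitors, Camp alone had a wide region linked to it. Markers of B cells had 21 regions, markers of T or NK cells 33, erythroid or megakaryocyte markers 16 and markers of mast cells, eosinophils or basophils 22, and no wide region was among them. Over all regions 2.07% were wide, and with so few marker regions neither of these counts lies far from that share. In these bulk samples, fewer open cells and less open DNA per cell cannot be told apart.

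Wide regions lay at gene starts more often than narrower ones. A region was classed as gene start where it came within 1 kb of an annotated start (or of either gene end, where the RefSeq promoter table had no start for the gene), as gene body where it lay elsewhere in a gene, and otherwise as outside genes. Gene starts held 672 wide regions (53.1%) against 20% of narrower regions, gene bodies 307 (24.2% against 41.6%), and the space outside genes 287 (22.7% against 38.4%). Of the 672, 537 covered an annotated start, and 74 (11.0%) covered starts of 2 genes, against 6.22% of narrower gene-start regions. Since a wide region has more chance of reaching a start, width itself enters these shares.

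The promoters under wide regions were CpG-rich in about the same share as those under narrower regions. RefSeq promoter windows of GRCm38.p6 (250 bases before to 50 after a start) were counted for 751 protein-coding starts in wide regions, and their median held 23 CpG dinucleotides, against 22 for 10730 starts in narrower regions and 4 for 9781 starts in no region. The observed over expected CpG ratio was above 0.6 for 75.6%, 76.0% and 14.3% of them. The 6 windows printed here show this range at starts named in the results: those of L3mbtl3, a reader of methylated lysine, of Il12a, which encodes the p35 subunit of interleukin 12, and of Med12l, a Mediator subunit, are CpG-rich, and those of Abca13, a lipid transporter, of Pilrb2, a paired immunoglobulin-like receptor, and of 4930438A08Rik are CpG-poor. Capitals mark each CpG, and each window reads 5′ to 3′ on the gene's own strand.
L3mbtl3: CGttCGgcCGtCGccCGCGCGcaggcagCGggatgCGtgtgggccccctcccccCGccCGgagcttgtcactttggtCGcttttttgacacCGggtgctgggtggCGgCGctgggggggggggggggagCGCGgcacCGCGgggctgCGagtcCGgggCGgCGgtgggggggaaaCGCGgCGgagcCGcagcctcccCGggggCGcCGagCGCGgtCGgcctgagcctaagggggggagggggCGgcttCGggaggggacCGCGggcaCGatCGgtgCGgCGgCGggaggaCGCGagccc
Il12a: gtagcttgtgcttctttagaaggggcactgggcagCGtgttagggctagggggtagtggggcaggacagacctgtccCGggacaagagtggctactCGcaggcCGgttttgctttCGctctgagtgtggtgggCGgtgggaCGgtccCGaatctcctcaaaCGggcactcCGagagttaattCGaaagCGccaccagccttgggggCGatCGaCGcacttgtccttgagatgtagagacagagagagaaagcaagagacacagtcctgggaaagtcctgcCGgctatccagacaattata
Med12l: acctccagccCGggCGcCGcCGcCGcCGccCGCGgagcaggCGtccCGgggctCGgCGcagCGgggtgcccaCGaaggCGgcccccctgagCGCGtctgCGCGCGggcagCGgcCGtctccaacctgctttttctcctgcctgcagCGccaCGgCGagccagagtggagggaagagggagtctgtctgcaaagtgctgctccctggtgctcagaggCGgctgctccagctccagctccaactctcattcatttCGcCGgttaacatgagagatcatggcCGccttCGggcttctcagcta
Abca13: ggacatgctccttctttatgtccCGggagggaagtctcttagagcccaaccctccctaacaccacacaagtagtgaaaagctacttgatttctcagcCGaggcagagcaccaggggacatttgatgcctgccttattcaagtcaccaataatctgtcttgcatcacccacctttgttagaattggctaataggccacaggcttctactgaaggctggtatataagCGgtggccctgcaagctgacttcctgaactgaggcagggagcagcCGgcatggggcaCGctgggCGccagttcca
Pilrb2: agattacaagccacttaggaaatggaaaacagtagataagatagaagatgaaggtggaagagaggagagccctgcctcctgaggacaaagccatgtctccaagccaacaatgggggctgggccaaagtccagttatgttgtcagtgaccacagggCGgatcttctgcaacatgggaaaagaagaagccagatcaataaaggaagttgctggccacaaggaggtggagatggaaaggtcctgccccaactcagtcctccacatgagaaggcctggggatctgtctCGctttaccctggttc
4930438A08Rik: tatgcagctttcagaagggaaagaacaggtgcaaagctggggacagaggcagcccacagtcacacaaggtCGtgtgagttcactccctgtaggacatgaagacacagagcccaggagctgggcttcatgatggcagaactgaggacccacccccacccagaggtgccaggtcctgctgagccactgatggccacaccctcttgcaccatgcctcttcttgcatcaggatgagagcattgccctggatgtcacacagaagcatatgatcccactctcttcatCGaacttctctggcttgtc
The L3mbtl3 window (chr10:26375170-26375469, minus strand) held 44 CpGs, the Med12l window (chr3:59006728-59007027, plus strand) 30, and the Il12a window (chr3:68691174-68691473, plus strand) 16. The Abca13 window (chr11:9191692-9191991, plus strand) held 6, the Pilrb2 window (chr5:137871709-137872008, minus strand) 2, and the 4930438A08Rik window (chr11:58274578-58274877, plus strand) 2.

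Short motifs were searched on both strands of all 21262 protein-coding windows, and overlapping matches of different motifs were each counted. The Sp1-type box GGGCGG stood in 67.1% of windows in wide regions, 67.6% of those in narrower regions and 46.2% of all windows. The CCAAT box stood in 31.0%, 38.6% and 38.2%, the ETS motif CCGGAAGT in 6.13%, 9.003% and 5.15%, the AP-1 motif TGAGTCA in 1.73%, 3.18% and 4.66%, and TATAAA in 6.26%, 6.10% and 12.6%. The PU.1 motif GAGGAAGT stood in 3.33% of windows in wide and 3.36% in narrower regions, the RUNX motif TGTGGTT in 4.13% and 3.59%, and the C/EBP palindrome TTGCGCAA in 0.266% and 0.326%. These are counts of letters in windows, and no test was made of them.

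Most wide regions were only just wide. Their median width was 2187 bp against 832 bp over all regions, 1082 were of 2000 to under 2500 bp, 184 were wider and 31 reached 3000 bp. Just inside the limit, at 2000 bp, the regions of highest level lay near Zfp217, at Slc25a43 and near Amz2, with mean levels of 27.2, 19.5 and 18.3 CPM. Just outside it, at 1999 bp, those at Ccng2, Eif4ebp1 and H3c7 had 132, 102 and 76.1 CPM. All 1266 wide regions passed the filter on low counts, and none had a count of 0 in any library, whereas 7780 narrower regions (12.98%) did. The deposited region names end in a number from 1 to 17 whose meaning the sources used here do not give. It was 10 or more for 316 wide regions (24.96%) and 57 narrower ones (0.0951%), and 1 for 3 wide regions and 13620 narrower ones.

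The widest region, of 4202 bp (chr11:34008369-34012570), lay outside genes, 15021 bp from Kcnip1, which encodes a potassium channel subunit. It had 75.8 and 55.4 CPM in cMoP, 69.7 and 61.8 in GMP-MoP, 64.4 and 86.1 in proNeu1, and 84.5 and 86.3 in proNeu2. Both proNeu2 libraries stood high there, 1 proNeu1 library overlapped them, and the other populations overlapped each other. The next widest, of 3516 bp (chr4:32248152-32251667), lay in the body of Bach2, a transcriptional repressor best known from lymphocytes. It had 74.7 and 67.03 CPM in cMoP, 42.1 and 40.2 in GMP-MoP, 21.2 and 31.9 in proNeu1, and 21.9 and 21.9 in proNeu2. The order of its levels was cMoP, then GMP-MoP, then both neutrophil progenitors, whose libraries overlapped. Among the 10 widest, 6 covered gene starts: L3mbtl3 (82.5 CPM on average), Il12a (34.6), the neighbouring genes Brox and Aida (99.5), Slc43a2, an amino acid transporter (72.9), Fermt3, the integrin activator kindlin-3 (54.6), and Zmym2 (83.7). The last 2 were a region near Tex44 (42.8 CPM) and an unlinked region at chr13:3742139-3745607 (28.8 CPM).

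Levels per kb of region placed wide gene-start regions below narrower ones and wide regions elsewhere above them. At gene starts the median over regions was 23.4 CPM per kb for wide and 26.4 for narrower regions, whereas in gene bodies it was 13.2 against 8.45 and outside genes 13.6 against 8.58. Narrower regions themselves differed by width: at gene starts the median rose from 7.28 CPM per kb under 750 bp to 33.3 from 1000 to under 1500 bp, and stood at 30.2 from 1500 to under 2000 bp, 23.6 from 2000 to under 2500 bp and 19.5 from 3000 bp. In gene bodies it was 6.77 under 750 bp, 13.1 from 1000 to under 1500 bp and 13.5 from 2000 to under 2500 bp. Width was set by peak calling on data that may include these libraries, so the level of these densities is a description.

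**Figure D1:**
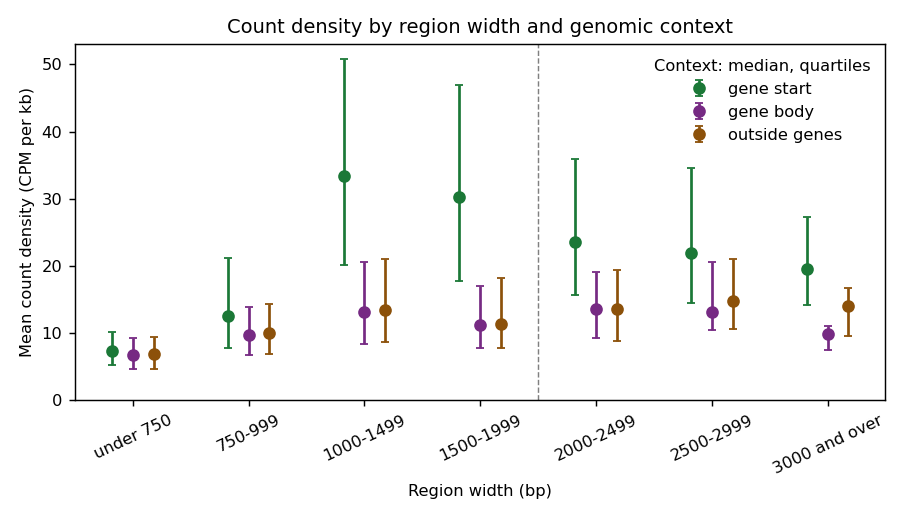
Median level per kb of region (CPM per kb, y axis) in 7 classes of region width (bp, x axis) for gene starts, gene bodies and regions outside genes; bars span the quartiles over regions and the dashed line marks 2000 bp. At gene starts the median was highest, 33.3 CPM per kb, from 1000 to under 1500 bp, and 23.6 just past 2000 bp.

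The densest wide regions lay at gene starts. That of Ube2d3, a ubiquitin-conjugating enzyme, had 129 CPM per kb over 2109 bp, followed by Crlf2, a subunit of the thymic stromal lymphopoietin receptor (126 CPM per kb), Kpnb1, the importin beta carrier (93.6), Zfp91 and Mbd6. At Kpnb1, cMoP had 132 and 139 CPM, GMP-MoP 159 and 130, proNeu1 246 and 262, and proNeu2 275 and 252, so both neutrophil progenitors stood above both other populations without overlap. The emptiest were a region in Myo3a (1.92 CPM per kb), an unlinked region on the X chromosome at chrX:130549050-130551305, and regions near Copb1 (2.78 CPM per kb), near Cd83 and in Tbc1d4. The X chromosome held 26 wide regions and the Y chromosome none.

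The share of counts falling in wide regions was slightly higher in both neutrophil progenitors. It was 5.92% and 5.53% in cMoP, 5.95% and 5.84% in GMP-MoP, 6.24% and 6.26% in proNeu1, and 6.37% and 6.37% in proNeu2. Both neutrophil progenitors stood above both monocyte-side populations without overlap, while cMoP and GMP-MoP overlapped. By context, the rise lay in wide gene starts, which took 3.47% to 3.88% of counts in cMoP and GMP-MoP and 4.23% to 4.33% in the neutrophil progenitors. Narrower gene starts rose alike: the log2 ratio of wide to narrower count density there was −0.35 to −0.29 in all 8 libraries. Wide gene bodies took 1.03% to 1.08% in all libraries, and wide regions outside genes 1.02% to 1.06% in cMoP and GMP-MoP and 0.971% to 0.991% in the neutrophil progenitors. An exact permutation test over the 105 assignments of the libraries to 4 groups, one-sided for large differences between groups, gave p = 0.0381 (smallest possible 0.00952). The p was 0.0667 without proNeu1 replicate 1, proNeu1 replicate 2 or GMP-MoP replicate 1, 0.0952 without either proNeu2 library, and 0.152 for regions of at least 2500 bp.

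Set against narrower regions of the same context, the density of wide regions was a different measure, and it separated the populations in gene bodies and outside genes but not at gene starts. In gene bodies the log2 ratio of count densities was 0.36 and 0.25 in cMoP, 0.41 and 0.36 in GMP-MoP, 0.53 and 0.50 in proNeu1, and 0.55 and 0.57 in proNeu2. Outside genes it was 0.37 and 0.25, 0.41 and 0.38, 0.52 and 0.52, and 0.57 and 0.54. In both contexts every neutrophil progenitor library stood above every cMoP and GMP-MoP library. Wide regions did not gain counts there: their share in gene bodies was 1.03% to 1.08% in all libraries. Outside genes it was 0.971% to 0.991% in the neutrophil progenitors and 1.02% to 1.06% in cMoP and GMP-MoP. The higher ratios thus went with a smaller share of counts in narrower regions of these contexts. At gene starts the 8 libraries lay between −0.35 and −0.29 and the populations overlapped. The same exact permutation test, adjusted by Benjamini-Hochberg over the 3 contexts, gave p = 0.0286 in gene bodies (unadjusted 0.0190), 0.0286 outside genes (unadjusted 0.00952, the smallest possible) and 0.695 at gene starts. In gene bodies and outside genes the adjusted p stood between 0.0571 and 0.0714 without proNeu1 replicate 2, either proNeu2 library or either GMP-MoP library, and outside genes it was 0.114 for regions of at least 2500 bp. Set against narrower regions of at least 1000 bp alone, the ratios fell to between −0.10 and 0.07 in gene bodies and between −0.09 and 0.05 outside genes, with an adjusted p of 0.0143 in both. Against regions of 1500 to under 2000 bp every library was above 0 again, from 0.10 to 0.21 in gene bodies and from 0.11 to 0.19 outside genes. The median count per region was highest in cMoP, at 16 and 18, where the mean ratios were lowest. It was 11 in GMP-MoP replicate 1, as in both proNeu1 libraries, whose ratios were higher. Wide and narrower tested regions also differed in median level, 30.1 and 8.71 CPM in gene bodies and 30.4 and 8.80 outside genes. The ratio carried no offsets for level. The part of the median count and of the level in the result was not tested.

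**Figure D2:**
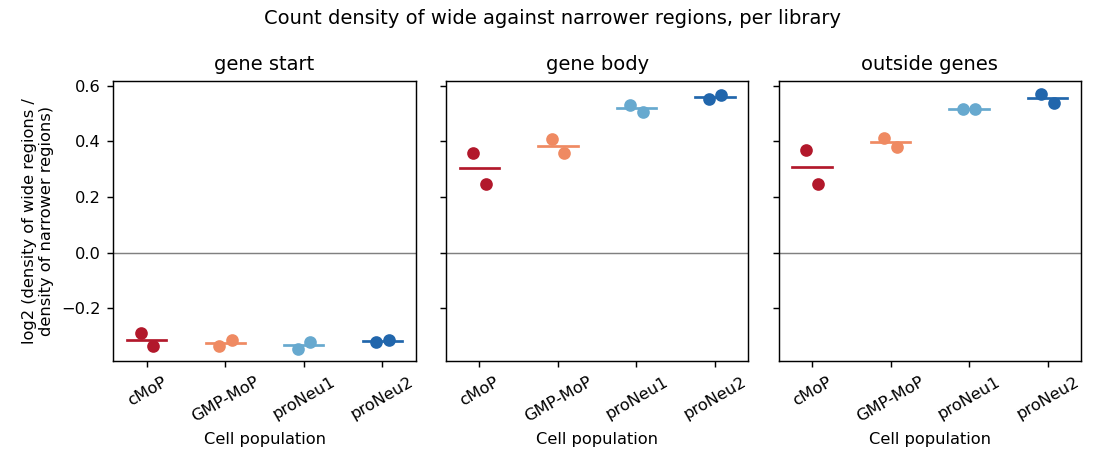
Log2 ratio of the count density of wide regions to that of narrower regions of the same context (y axis) in each library (points) of the 4 populations (x axis), with lines at the mean of 2 libraries. In gene bodies and outside genes the proNeu1 and proNeu2 points, 0.50 to 0.57, all lie above those of cMoP and GMP-MoP, 0.25 to 0.41; at gene starts all 8 lie between −0.35 and −0.29.

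The next comparisons ask where GMP-MoP stood between the monocyte and neutrophil progenitors. They were fitted in edgeR over all 47506 tested regions, and a region was called at an adjusted p under 0.05 in its quasi-likelihood F test. The 3 comparisons with GMP-MoP share its 2 libraries, and the others share cMoP or proNeu libraries in the same way. Between GMP-MoP and cMoP, 69 wide regions were called, 29 higher and 40 lower in GMP-MoP. That is 5.45% of the 1266, and 5.45% of all tested regions were called, 1.98% higher and 3.47% lower. At gene starts 10 of 672 were called (1.49%, against 1.62% of narrower gene-start regions), in gene bodies 32 of 307 (10.4% against 6.49%) and outside genes 27 of 287 (9.41% against 6.90%). The median log2 fold change of wide regions was 0.00, against −0.02 over all tested regions. Leaving out cMoP replicate 1 left 35 calls (23 higher), leaving out cMoP replicate 2 left 24 (12 higher), leaving out GMP-MoP replicate 1 left 26 (16 higher), leaving out GMP-MoP replicate 2 left 50 (34 higher), and fitting the 2 populations alone left 39 (25 higher). DESeq2 called 2 of them.

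Those 2 lay near Gatm and in Chst13, the second of which was named after its values were seen. The region nearest Gatm, the enzyme of the first step of creatine synthesis (chr2:122560614-122562983, outside genes, 31490 bp away), had 15.6 and 17.4 CPM in cMoP, 42.8 and 37.4 in GMP-MoP, 80.03 and 75.96 in proNeu1, and 105 and 99.6 in proNeu2. No 2 populations overlapped. GMP-MoP exceeded cMoP by 1.27 on the log2 scale (SE 0.23, adjusted p = 5.85e-05 in edgeR and 0.0359 in DESeq2). The region in Chst13, a chondroitin sulfotransferase gene (chr6:90318542-90321158), had 30.6 and 30.1 CPM in cMoP, 69.0 and 73.1 in GMP-MoP, 110 and 90.9 in proNeu1, and 97.3 and 96.2 in proNeu2. GMP-MoP there lay above both cMoP libraries and below both neutrophil progenitors.

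The other regions highest in GMP-MoP against cMoP were at or in Rnase10, Wfdc21, Rai1, Bahcc1, Bach1, Ddc and Abca13, and DESeq2 called none of these 7. At Abca13 (chr11:9189880-9192338), the CpG-poor start printed above, cMoP had 14.5 and 18.5 CPM, GMP-MoP 34.9 and 47.6, proNeu1 50.3 and 52.2, and proNeu2 56.5 and 69.0. GMP-MoP exceeded cMoP by 1.34 (SE 0.23) on the log2 scale, with an adjusted p of 1.89e-05 in edgeR and 0.0511 in DESeq2. In Bach1, a heme-regulated repressor, cMoP had 9.68 and 6.33 CPM, GMP-MoP 21.1 and 20.4, proNeu1 17.0 and 18.99, and proNeu2 23.1 and 18.6, so GMP-MoP overlapped proNeu2 and lay above cMoP. Regions lower in GMP-MoP were those near Copb1, Psd2, Dyrk2 and 5031439G07Rik, those in Zfhx3, Sdk1 and Clec2f, and the region chr1:177568156-177570294. In Zfhx3, a zinc finger homeobox factor, cMoP had 37.6 and 26.4 CPM, GMP-MoP 16.0 and 12.5, proNeu1 6.37 and 11.5, and proNeu2 2.43 and 6.64. cMoP was highest and GMP-MoP next, both apart from the rest, and the neutrophil progenitors overlapped.

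Between GMP-MoP and proNeu1, 425 wide regions were called (33.6%), 131 higher and 294 lower in GMP-MoP, against 24.1% of all tested regions (11.6% higher and 12.5% lower). Of 672 wide gene-start regions 209 were lower and 41 higher (31.1% and 6.10%), and narrower gene starts leaned the same way, with 24.3% lower and 3.97% higher and medians of −0.25 for both widths. Wide regions in gene bodies had 46 of each (15.0%), against 8.68% lower and 13.4% higher of narrower ones. Those outside genes had 39 lower and 44 higher (13.6% and 15.3%), against 7.78% and 14.9%. At 20 to 40 CPM the lower shares were 13.5% of wide and 15.6% of narrower regions in gene bodies, and 13.5% and 14.5% outside genes. The higher shares at that level were 16.9% and 12.0% in gene bodies, and 15.1% and 12.9% outside genes. At 40 to 80 CPM outside genes, 15.9% of 69 wide and 6.09% of 493 narrower regions were higher. The lower shares there were 14.5% and 24.7%. In gene bodies at 40 to 80 CPM the higher shares were 2.78% and 4.67%, and the lower shares 27.8% and 28.02%. At 10 to 20 CPM the higher shares were 26.1% and 14.5% in gene bodies, and 19.7% and 16.1% outside genes. The lower shares were 5.80% and 9.88%, and 7.58% and 8.94%. These differences were not tested. The median log2 fold change of wide regions was −0.15, against 0.01 over all tested regions. The split depended on the scaling: with total counts in place of TMM factors 184 were higher and 200 lower, and with loess offsets across the level of a region 228 were higher and 132 lower, with a median of 0.09. The count fell to 253 without proNeu1 replicate 2 and to 189 without GMP-MoP replicate 2.

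The regions furthest above proNeu1 in GMP-MoP had higher means still in cMoP. The region in Taok3, a kinase of the STE20 family (chr5:117158280-117160394), had 69.9 and 67.6 CPM in cMoP, 42.8 and 42.5 in GMP-MoP, 4.25 and 7.46 in proNeu1, and 8.51 and 7.30 in proNeu2. Both neutrophil progenitors overlapped at the bottom, and GMP-MoP lay between them and cMoP. The difference of GMP-MoP from proNeu1 was 2.84 on the log2 scale (SE 0.31, edgeR adjusted p = 5.31e-14), and that from cMoP −0.69 (SE 0.18, adjusted p = 0.00735, and 0.648 in DESeq2). In Bphl, which encodes a hydrolase, cMoP had 45.2 and 50.7 CPM, GMP-MoP 30.5 and 27.8, proNeu1 4.25 and 5.43, and proNeu2 3.65 and 6.64. In Ptger3, the prostaglandin E2 receptor EP3, cMoP had 51.6 and 51.2 CPM, GMP-MoP 30.5 and 34.6, proNeu1 7.08 and 4.75, and proNeu2 6.69 and 11.3. Both showed the order seen in Taok3. Sorcs3, Bmt2, Zfyve9, Cryzl2 and the region chr1:105434598-105436597 completed the 8 largest, with log2 differences of GMP-MoP from proNeu1 of 2.24, 2.31, 1.97, 1.94 and 1.79.

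The regions furthest below proNeu1 in GMP-MoP lay near Syt8, at Pilrb2, at 4930438A08Rik, near Camp, in Bahcc1, in Vipr1, near Ppp1cb and at Wfdc21. Camp encodes the cathelicidin of neutrophil secondary granules, and its wide region (chr9:109860847-109863152, 11391 bp away) had 8.60 and 15.3 CPM in cMoP, 12.3 and 15.3 in GMP-MoP, 59.5 and 33.2 in proNeu1, and 62.0 and 47.8 in proNeu2. GMP-MoP overlapped cMoP and lay below both neutrophil progenitors, by 1.72 on the log2 scale from proNeu1 (SE 0.26, edgeR adjusted p = 3.06e-08). At Pilrb2, whose start is the CpG-poor one printed above, cMoP had 6.45 and 6.86 CPM, GMP-MoP 7.26 and 5.102, proNeu1 23.4 and 21.0, and proNeu2 34.7 and 28.5. Pilrb2 belongs to a family of close copies, so its reads may be shared with them. At Wfdc21, a gene of the whey acidic protein family (chr11:83746499-83748579), cMoP had 7.53 and 2.11 CPM, GMP-MoP 9.44 and 16.4, proNeu1 38.2 and 39.3, and proNeu2 42.0 and 49.1. All 16 named regions kept their calls between GMP-MoP and proNeu1 in every alternative run, and the same held for the 16 between proNeu1 and cMoP.

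**Figure D3:**
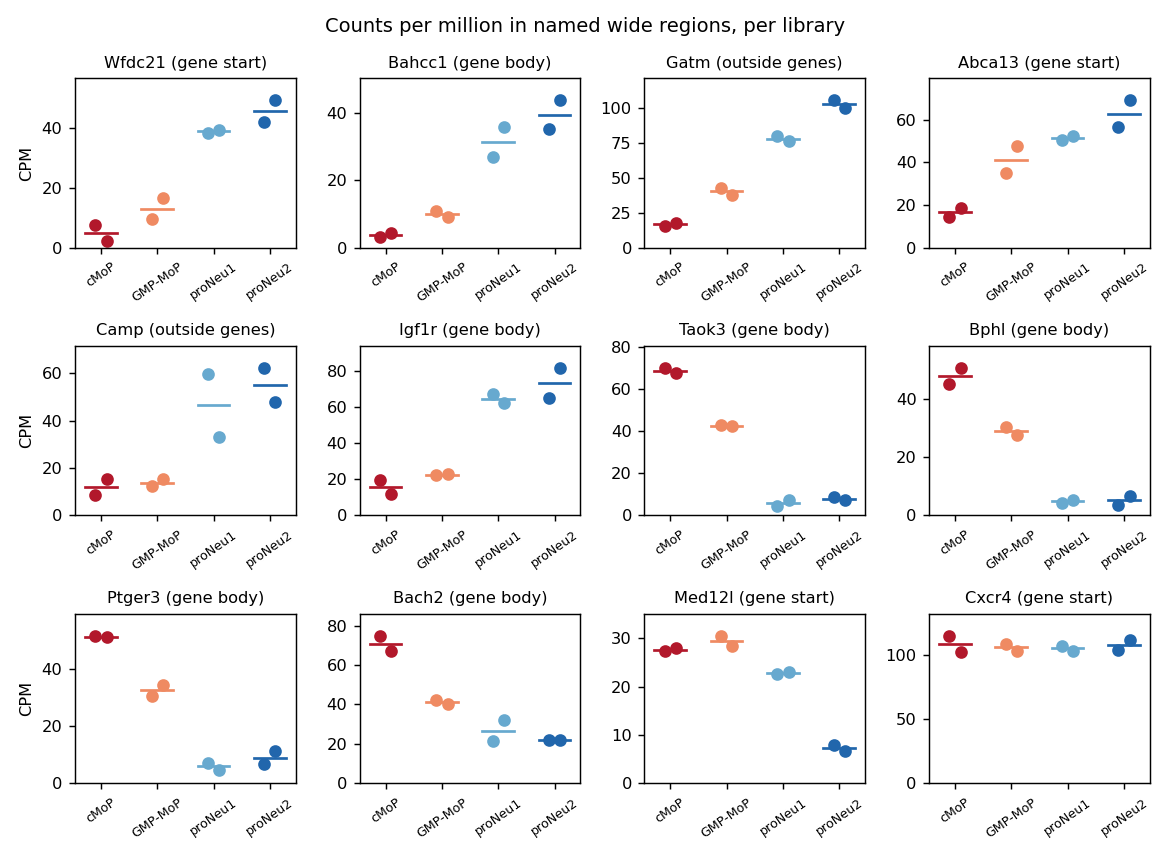
CPM (y axes, each from 0) in each library (points) of the 4 populations (x axis) for 12 wide regions, with lines at the mean of 2 libraries; each title gives the linked gene and the context. Taok3, Bphl and Ptger3 fall from cMoP through GMP-MoP to the neutrophil progenitors, Gatm rises, Camp and Igf1r separate the neutrophil progenitors from the rest, Med12l is low in proNeu2 alone at 6.64 and 7.90 CPM, and Cxcr4 stays between 102 and 115 CPM.

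Between GMP-MoP and proNeu2, 636 wide regions were called (50.2%), 221 higher and 415 lower in GMP-MoP, against 39.2% of all tested regions (20% higher and 19.2% lower). With loess offsets the split was 323 higher and 240 lower, and with total counts 289 and 320.

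Between proNeu1 and cMoP, 643 wide regions were called (50.8%), 426 higher and 217 lower in proNeu1, against 42.4% of all tested regions (20.6% higher and 21.9% lower). At gene starts 276 were higher and 68 lower (41.1% and 10.1%, against 33.4% and 7.69% of narrower ones), in gene bodies 87 and 76 (28.3% and 24.8%, against 17.1% and 25.9%), and outside genes 63 and 73 (22.0% and 25.4%, against 14.8% and 27.4%). Wide and narrower regions differed in median level: 53.9 and 35.7 CPM at gene starts, 30.1 and 8.71 in gene bodies, 30.4 and 8.80 outside genes. Shares at like level are given below. The median log2 fold change at gene starts was 0.29 for wide and 0.29 for narrower regions. The direction rested on the scaling, and the median over all wide regions went from 0.20 with TMM factors to −0.06 with loess offsets: 341 were higher and 268 lower with total counts, 376 and 238 with RLE size factors, and 206 and 321 with loess offsets, where wide gene starts had 110 higher and 135 lower. Wide regions away from gene starts went from 150 higher and 149 lower with TMM factors to 96 and 186 with loess offsets. Their median went from 0.03 to −0.15, while that of all narrower regions was 0.02 with both. Between proNeu2 and cMoP, 772 were called (61.0%), 490 higher and 282 lower, against 52.6% of all tested regions (25.2% higher and 27.4% lower), with 412 and 338 under total counts and 292 and 392 under loess offsets. Total counts moved the median of all tested regions from −0.02 to −0.15 in that comparison, and from 0.04 to 0.19 between GMP-MoP and proNeu2.

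**Figure D4:**
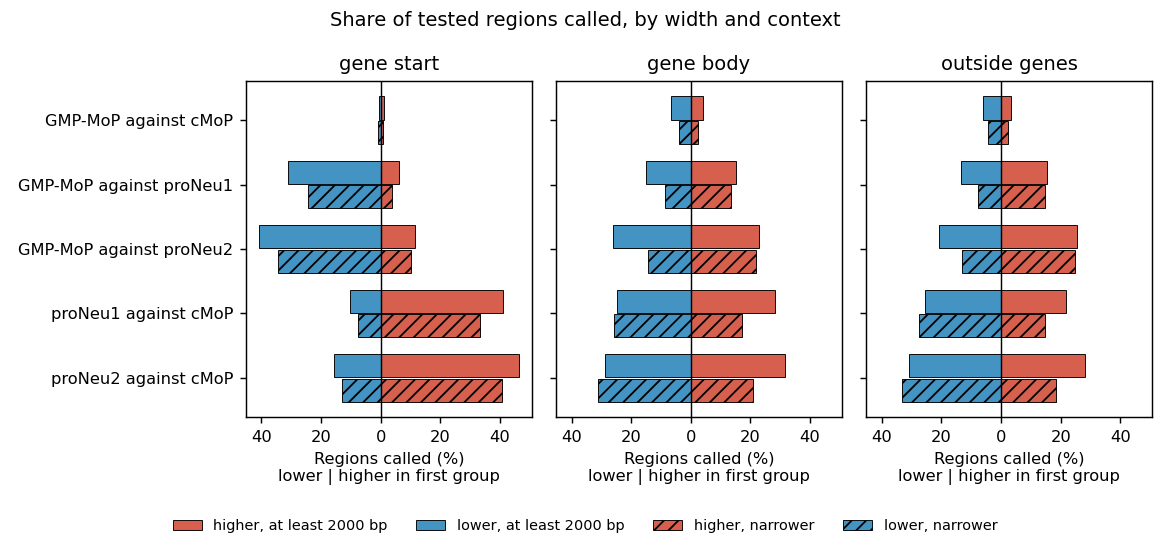
Percent of tested regions called higher (right of 0) and lower (left of 0) in the first group of 5 comparisons (y axis), for wide (plain) and narrower (hatched) regions at gene starts, in gene bodies and outside genes; edgeR with TMM factors. At gene starts proNeu1 against cMoP has 41.1% of wide regions higher and 10.1% lower.

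**Figure D5:**
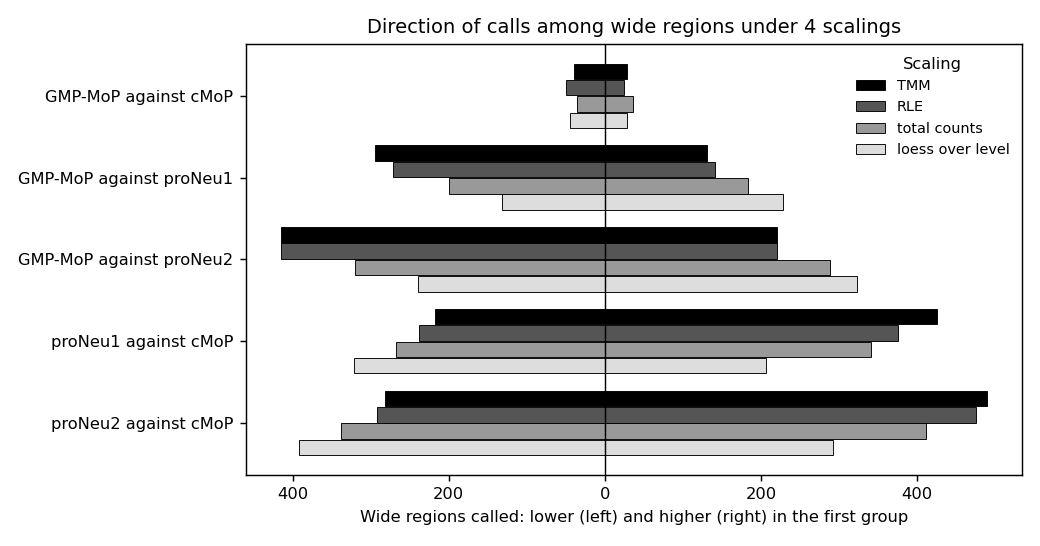
Number of wide regions called lower (left of 0) and higher (right of 0) in the first group of 5 comparisons (y axis) under 4 scalings (bar shades). From TMM to loess offsets, proNeu1 against cMoP goes from 426 higher and 217 lower to 206 higher and 321 lower.

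Since calls depend on counts, regions of like level were also set side by side. Among gene-start regions with a mean of 40 to 80 CPM, 44.5% of 299 wide and 46.3% of 3495 narrower regions were higher in proNeu1 than in cMoP, and 8.03% of the wide and 1.75% of the narrower were lower. At 20 to 40 CPM the lower share was 17.0% of 147 wide and 7.67% of 2880 narrower regions. For 40 to 80 CPM the lower shares were 11.0% and 2.92% with total counts, 9.03% and 2.20% with RLE size factors, 16.1% and 9.90% with loess offsets, and 4.35% and 0.773% in DESeq2. The higher shares were 36.1% and 36.02%, 39.8% and 40.1%, 17.7% and 18.1%, and 18.4% and 18.3% in the same order. No test of this difference was made.

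Between proNeu1 and cMoP, called changes of at least 2-fold were a larger share at CpG-poor than at CpG-rich starts, for wide and narrower regions alike. There, 22 of 417 wide regions over a CpG-rich start (5.28%) and 19 of 120 over a CpG-poor start (15.8%) were called with a change of at least 2-fold, against 6.05% and 15.0% of narrower regions. The median level also differed, at 63.5 CPM for CpG-rich and 41.6 for CpG-poor wide regions and 45.9 and 21.7 for narrower ones, and its part in the result was not tested. The median absolute log2 fold change was 0.42 and 0.49 for the wide ones. Between proNeu2 and proNeu1 the 2-fold shares of wide regions were 0.240% at CpG-rich starts and 0 at CpG-poor ones. Between proNeu1 and cMoP without a fold limit, 50.8% of wide regions at CpG-rich starts and 53.3% at CpG-poor ones were called. At CpG-rich starts 179 were higher and 33 lower, which became 59 and 76 with loess offsets. At CpG-poor starts 49 were higher and 15 lower, which became 27 and 27 with loess offsets.

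The 8 regions furthest above cMoP in proNeu1 lay in Bahcc1, at Wfdc21, near Syt8, in Arhgap23, near Gatm, in Nrp1, at chr10:95778630-95780631 and in Igf1r. In Igf1r, the insulin-like growth factor receptor (chr7:68148086-68150132), cMoP had 19.4 and 11.6 CPM, GMP-MoP 22.5 and 22.7, proNeu1 67.3 and 62.4, and proNeu2 65.1 and 81.6. GMP-MoP lay just above cMoP and the neutrophil progenitors overlapped far above both, with a difference of proNeu1 from cMoP of 2.06 on the log2 scale (SE 0.22, edgeR adjusted p = 6.02e-16). In Nrp1, a semaphorin and growth factor coreceptor, cMoP had 4.84 and 7.39 CPM, GMP-MoP 13.8 and 12.5, proNeu1 27.6 and 27.8, and proNeu2 37.7 and 23.9. The 8 furthest below were Taok3, Copb1, Bphl, Ptger3, Sorcs3, Bmt2, Cd83 and Clec2f. Near Cd83, a surface marker of activated dendritic cells, cMoP had 31 and 14 counts, GMP-MoP 7 and 11, proNeu1 2 and 3, and proNeu2 5 and 7, so this region rested on few reads. Reads are amplified by PCR and are not independent molecules.

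Between proNeu2 and proNeu1, 3 wide regions were called, all lower in proNeu2 and all at gene starts, against 0.0758% of all tested regions (0.00842% higher and 0.0674% lower). At an unadjusted p under 0.05, 149 wide regions passed in edgeR, while DESeq2 called 0, with 51 under an unadjusted 0.05. Med12l, whose CpG-rich start is printed above (chr3:59005394-59007714), had 27.4 and 27.98 CPM in cMoP, 30.5 and 28.3 in GMP-MoP, 22.7 and 23.1 in proNeu1, and 7.90 and 6.64 in proNeu2. proNeu2 stood alone at the bottom, 1.64 below proNeu1 on the log2 scale (SE 0.34, edgeR adjusted p = 0.0171). At Trps1, a GATA-type repressor, cMoP had 62.4 and 53.3 CPM, GMP-MoP 55.9 and 69.2, proNeu1 57.4 and 49.5, and proNeu2 26.8 and 27.9. At Rhobtb1, whose region also covers the start of A930033H14Rik, cMoP had 94.1 and 94.5 CPM, GMP-MoP 79.1 and 101, proNeu1 65.2 and 88.2, and proNeu2 48.0 and 39.2. In each of the 3, proNeu2 lay below every other library. None of the 3 calls was kept in all alternatives: no wide region was called without either proNeu2 library, and 1 without proNeu1 replicate 1.

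Of 267 genes in 14 lists of pathways, lineages and cell types, 36 had a wide region, 42 in all (3.36% of their 1251 regions). Between proNeu1 and cMoP, 21 of the 42 were higher in proNeu1 and 4 lower. Over all wide regions 33.6% were higher and 17.1% lower, and over all tested regions 20.6% and 21.9%. At wide gene starts the shares were 41.1% and 10.1%. The split rested on the scaling: no list had more higher regions with loess offsets than with TMM factors, and chromatin and splicing regulators went from 7 higher to 2. Immediate early and AP-1 genes, which answer growth and stress signals, had 6 wide regions, 5 higher and none lower in proNeu1, and 3 higher with loess offsets. The median log2 fold change was 0.61, against 0.29 at wide gene starts, 0.20 over all wide regions and 0.02 over all tested regions. With loess offsets it was 0.23, against −0.02 at wide gene starts and −0.06 over all wide regions. At Dusp1, a phosphatase that ends MAP kinase signals, cMoP had 46.8 and 33.3 CPM, GMP-MoP 45.0 and 47.1, proNeu1 80.7 and 82.1, and proNeu2 91.8 and 81.6. Both neutrophil progenitors lay above the others, by 1.03 on the log2 scale for proNeu1 against cMoP (SE 0.17, edgeR adjusted p = 2.06e-07, and 0.00016 with loess offsets). At Junb, an AP-1 subunit, cMoP had 88.7 and 83.4 CPM, GMP-MoP 92.2 and 84.5, proNeu1 113 and 125, and proNeu2 163 and 129. The difference of proNeu1 from cMoP at Junb was 0.47, and 0.06 with loess offsets (adjusted p 0.00421 and 0.718).

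Among later granule genes, Wfdc21 and Camp were higher in proNeu1 than in cMoP, while at the starts of Anxa1, the anti-inflammatory annexin, and near Csf3r, the receptor of the neutrophil growth factor, the log2 differences were 0.13 and 0.18 (adjusted p 0.620 and 0.50). Of 2 wide regions at primary granule genes, that near Ctsc, the activator of granule serine proteases, was lower in proNeu1. It had 37.6 and 38.0 CPM in cMoP, 26.9 and 37.4 in GMP-MoP, 17.7 and 19.7 in proNeu1, and 21.9 and 19.2 in proNeu2, and the neutrophil progenitors lay below every other library. The other, at the start of Igfbp4, had 38.2 and 32.2 CPM in cMoP, 43.6 and 48.8 in GMP-MoP, 43.2 and 45.4 in proNeu1, and 70.5 and 50.4 in proNeu2, and was called higher in proNeu2 than in cMoP (log2 difference 0.79, adjusted p 0.000141). Of 2 wide regions at monocyte and macrophage genes, that of Ctsb, a lysosomal protease, was higher in proNeu1 than in cMoP by 0.51 (adjusted p 0.0264), but not with total counts, loess offsets (0.293) or DESeq2 (0.269). That of Cd14, a receptor for bacterial lipopolysaccharide, differed by −0.45 (0.184). Myeloid transcription factor genes had 9 wide regions, 4 higher and 2 lower in proNeu1, and 2 higher and 3 lower with loess offsets. At Egr2, a zinc finger factor of the macrophage path, cMoP had 69.3 and 51.7 CPM, GMP-MoP 61.0 and 64.1, proNeu1 99.2 and 103, and proNeu2 89.99 and 82.97. In Fli1, an ETS factor, cMoP had 91.9 and 80.2 CPM, GMP-MoP 86.4 and 68.6, proNeu1 63.7 and 69.2, and proNeu2 67.5 and 80.3. Egr2 was higher in proNeu1 by 0.74 (adjusted p 2.59e-05), and Fli1 lower, by −0.37 (0.0475). DESeq2 called 2 of the 9 regions higher in proNeu1 and none lower, so the Fli1 call was lost there. At Egr2 the neutrophil progenitors lay apart from the others, and at Fli1 GMP-MoP and proNeu2 overlapped their neighbours.

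Chromatin and splicing regulators had 10 wide regions at 7 genes, among them Hnrnpu, Kdm6b, Tet3 and Ncor1, with 7 higher and none lower in proNeu1 than in cMoP, beside 33.6% higher and 17.1% lower over all wide regions. With loess offsets 2 were higher and 1 lower. Between proNeu2 and cMoP 6 were higher and 2 lower, the 2 lying in Arid5b and at Dnmt3a, which were named after their values were seen. DESeq2 called 4 higher and none lower in that comparison, and without the count filter 7 were higher and 1 lower. Housekeeping genes had 3, at Ywhaz, Hsp90ab1 and Ldha, with 2 higher, and none called with loess offsets, where their median turned from 0.42 to −0.04. Of 4 wide regions at stem and early progenitor genes, that near Sox4 was lower in proNeu1: cMoP had 71.5 and 59.1 CPM, GMP-MoP 69.0 and 57.3, proNeu1 56.7 and 35.3, and proNeu2 42.0 and 34.5. DESeq2 called none of these 4 between proNeu1 and cMoP. The wide region 1711 bp from Mir17hg, the host gene of the miR-17 cluster, was among the strongest at 169 CPM on average. It had 188 and 168 CPM in cMoP, 190 and 177 in GMP-MoP, 169 and 168 in proNeu1, and 151 and 140 in proNeu2, so proNeu2 lay below every other library. The single wide region at a dendritic cell marker, H2-Ab1, had a log2 difference of 0.67 between proNeu1 and cMoP (adjusted p 0.0557) and was called higher in proNeu2 than in cMoP, by 1.01 (adjusted p 0.000960, and 0.0483 in DESeq2). It had 13.98 and 12.1 CPM in cMoP, 22.5 and 18.1 in GMP-MoP, 19.8 and 21.7 in proNeu1, and 28.6 and 23.9 in proNeu2, with cMoP lowest, while the summed level of that list was 557 to 585 CPM in cMoP, 454 to 484 in GMP-MoP, 405 to 456 in proNeu1 and 421 to 427 in proNeu2; its part in the result was not tested.

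The 1186 wide regions linked to a gene within 50 kb belonged to 1125 genes, of which 51 had 2 and 5 had 3: Tex44, Nsmaf, Bahcc1, Svil and Wsb1. Wide regions of 1 gene did not all move together. At Bahcc1 the region in the gene body at chr11:120280142-120282147 had 3.23 and 4.22 CPM in cMoP, 10.9 and 9.07 in GMP-MoP, 26.9 and 35.9 in proNeu1, and 35.3 and 43.8 in proNeu2, while the region at the start had 55.9 and 57.0, 69.0 and 59.0, 74.4 and 70.5, and 77.2 and 57.7. The first exceeded cMoP by 3.05 on the log2 scale in proNeu1 and the second by 0.36 (adjusted p 3.64e-14 and 0.0725). At Nsmaf, an adaptor of neutral sphingomyelinase, both regions of the gene body were lower in proNeu1, by −1.54 and −1.13, and the region at a gene end differed by 0.18 (adjusted p 0.458). At Wsb1, a SOCS box protein, all 3 were higher in proNeu1, by 0.92, 0.80 and 0.51, and the third of these was not called with loess offsets (adjusted p 0.260), total counts or RLE size factors.

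Some wide regions were nearly level. The 5 with the smallest range of group means were at Cxcr4, Vac14 and Mrpl53 and at chr3:153790338-153792647 and chr4:95160907-95163010. At Cxcr4, the receptor that holds progenitors in the marrow, cMoP had 115 and 102 CPM, GMP-MoP 108 and 103, proNeu1 107 and 103, and proNeu2 104 and 112. All 4 populations overlapped. With loess offsets the difference of proNeu1 from cMoP became −0.45 there (adjusted p 0.00115), against −0.05 (0.817) with TMM factors.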

How the data were processed

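Chromatin accessibility was measured by ATAC-seq in 8 libraries. The deposited files hold a whole-number count per region for 61196 regions that are the same in every file, and the authors' counts were taken as raw counts. Per the submitters' processing notes the authors used Bowtie2 2.3.5.1, HOMER 4.11, edgeR 3.32.1 and mm10; the sources used here do not give how reads were shifted, deduplicated and counted or how regions were called and merged. Counts were tested with edgeR 4.0.16 in R 4.3.3 (TMM factors, filterByExpr with a minimum count of 10, robust quasi-likelihood fit, the 4 populations each with a mean, F test, Benjamini-Hochberg over 47506 tested regions), checked on simulated data. DESeq2 1.42.0, other scalings, no count filter, a replicate block, other width limits and leaving out each library were run as alternatives. CPM values use TMM factors; an SE is the log2 fold change over the square root of F. The depth, 1388525 to 1907810 counts per library, covers regions only.

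Regions were linked to the nearest protein-coding or listed gene within 50 kb in a RefSeq table of GRCm38.p6, which gives no strand; distance alone does not tell which gene is regulated. Starts came from a RefSeq promoter table that covered 17491 of 21896 protein-coding genes (79.9%). No genome sequence was used, so the regions' own sequences are not printed. CPM per kb is the mean CPM over 8 libraries divided by width. Named regions are the 10 widest, the 5 densest and 5 emptiest, up to 8 higher and 8 lower calls of largest fold change in 4 comparisons, up to 4 per gene list by level, genes with the most wide regions, regions beside the width limit and the 5 most level. The members, lists and rules were chosen with earlier results of these data known. The CpG limit of 0.6 and the comparison of regions of like level were chosen after seeing the data. Counting intervals are not given, since PCR reads are not independent molecules.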

Additional observations from a re-analysis of the deposited data

Results flagged for a closer look

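The log2 count density ratio of wide to narrower regions differed between the 4 populations in gene bodies and outside genes, with an adjusted p of 0.0286 in both by the exact permutation test over libraries. The means of 2 libraries were 0.30 ± 0.08 in cMoP, 0.38 ± 0.04 in GMP-MoP, 0.52 ± 0.02 in proNeu1 and 0.56 ± 0.01 in proNeu2 in gene bodies (SD, n = 2), and 0.31 ± 0.09 in cMoP, 0.40 ± 0.02 in GMP-MoP, 0.52 ± 0.00 in proNeu1 and 0.55 ± 0.02 in proNeu2 outside genes (SD, n = 2). These are values, and no explanation of them was weighed.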

How the results depend on the processing

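Counts of called wide regions are given in the order GMP-MoP against cMoP, GMP-MoP against proNeu1, GMP-MoP against proNeu2, proNeu1 against cMoP, proNeu2 against cMoP and proNeu2 against proNeu1, for which the main values were 69, 425, 636, 643, 772 and 3. DESeq2 called 2, 120, 330, 315, 493 and 0 (unadjusted p under 0.05 for 85, 353, 533, 496, 627 and 51). A change of at least 2-fold left 25, 97, 195, 204, 283 and 1. A limit of 1500 bp gave 283, 1831, 2749, 2726, 3331 and 5 of 5687 tested regions, and 2500 bp gave 6, 65, 99, 84, 120 and 0 of 184. Fitting only the 2 populations of the first comparison called 39. Leaving out 1 library gave 24 to 72, 189 to 431, 427 to 652, 459 to 682, 622 to 807 and 0 to 3; a lone library is then assumed to vary like the other groups. These alternatives test fewer libraries or regions, and otherwise the cause was not tested.

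Deviations from the population mean correlated at −0.01 to 0.08 between libraries with the same replicate number. Whether such libraries shared a mouse or a batch is not given, and these correlations cannot settle it. With a replicate block 80, 451, 656, 657, 793 and 3 wide regions were called.

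The exact permutation p for the share of counts in wide regions was 0.0381, 0.152 with a limit of 2500 bp, and 0.00952 to 0.0952 without 1 library. The adjusted p for the density ratio was 0.0143 to 0.0714 without 1 library in gene bodies and outside genes alike, and 0.114 outside genes with 2500 bp. Named calls kept in every alternative were 16 of 16 between GMP-MoP and proNeu1, 16 of 16 between proNeu1 and cMoP, 1 of 16 between GMP-MoP and cMoP and 0 of 3 between proNeu2 and proNeu1; none reversed. With 2 libraries a group, no comparison of 2 populations alone could go below an exact permutation p of 0.333.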

Other observations

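Of 1005 microRNA hairpins in the RefSeq table, 2 lay in wide regions, Mir7238 and Mir5100, and 99 in narrower ones.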
